A study of Mus musculus with 2 samples.

Results

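*Crabp1* fibroblasts are described here as they were found in mouse skin wounds on day 5 after wounding. They were the cells with fibroblast RNA that held at least 2 molecules of *Crabp1*, the gene of cellular retinoic acid-binding protein 1. By this rule 528 cells were members, among 3459 cells in a gate for fibroblasts, 15514 cells that passed the limits on genes and mitochondrial RNA, and 23089 captured cells in all. The members were chosen by measured values, namely their own *Crabp1* count and the collagen, *Dcn*, *Rgs5*, *Pecam1*, *Lyz2*, *Krt5* and *Krt14* counts that make up the gate, so these genes describe the members and are no result about them.

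The study asked what is lost from a wound when macrophages that carry CD206 are removed. Both libraries are labelled as Mrc1-DTR mice of the C57BL/6 strain, 7 to 9 weeks old, in which cells that use the *Mrc1* promoter (*Mrc1* codes for CD206) display the receptor for diphtheria toxin. The PBS library is labelled as such mice given phosphate-buffered saline and the DTX library as such mice given diphtheria toxin, which kills any cell that displays the receptor, whether or not it is a macrophage. The methods of the study instead describe the control mice as wild-type mice that also received the toxin, so that what the control lacks could not be settled. The paper's text also gives the cell number of the library labelled PBS to the wounds of Mrc1-DTR mice and that of the library labelled DTX to control wounds. For its single-cell data the paper describes relatively more immune cells, and fewer fibroblasts, in Mrc1-DTR than in control wounds. In each group the wounds of 3 mice were taken with a 10 mm punch and pooled, live cells (negative for the dye 7AAD) were sorted, and RNA was captured in droplets in which each molecule receives a cell barcode and a unique molecular identifier (UMI). The library labelled PBS held 12058 cells with 105511870 UMIs and the library labelled DTX 11031 cells with 81858751 UMIs. With 1 library per condition there was no replicate spread and no test. The methods state technical replicates and no biological ones, and whether each library joins technical replicates could not be told. Every interval given is a 95% interval for counting error only, and it does not cover differences between mice or between captures. Since only cells that survived digestion and sorting were counted, a share of cells does not give the number of cells in the wound.

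*Mrc1*, the gene whose promoter drives the receptor, was looked at first. Levels are given as CPM, the UMIs of a gene summed over a set of cells and scaled to the same total for every set. Over all cells that passed the limits *Mrc1* was at 65.5 CPM (interval 63.8 to 67.2) in the library labelled PBS and at 267 CPM (263 to 271) in the library labelled DTX. In cells with at least 20 *Lyz2* UMIs and hardly any collagen it was at 415 CPM (402 to 428) and 380 CPM (373 to 387). *Mrc1* RNA was thus higher among all cells of the library labelled DTX, which held more *Lyz2* cells (3758 of 7188 against 1322 of 8326) and fewer fibroblasts of the collagen and *Dcn* gate (7.68% against 34.9% of kept cells). Within *Lyz2* cells the value of the library labelled DTX was the smaller, by less than 2-fold and with intervals that did not overlap. The labels are followed here, with PBS and DTX as names of the libraries.

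CRABP1 binds retinoic acid, the active form of vitamin A, inside the cell and limits how much of it reaches its nuclear receptors. In mouse skin the dermis is layered, with papillary fibroblasts under the epidermis, reticular fibroblasts below them, and fascia fibroblasts under the skin. *Crabp1* is known as a marker of upper dermal and upper wound fibroblasts and of the dermal papilla of the hair follicle, and the upper layer is known for the collagens that fasten the epidermis to the dermis. *Crabp1* itself lies on chromosome 9 (GRCm38, chr9:54764748-54773110, plus strand).

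The fibroblast gate took cells in which *Col1a1*, *Col1a2*, *Col3a1* and *Dcn* made up at least 2% of UMIs, with at most 1 UMI of *Rgs5*, none of *Pecam1*, under 5 of *Lyz2* and under 0.5% of UMIs from *Krt5* and *Krt14*. Of the PBS-labelled gate cells 401 of 2907 were members, a share of 13.8% (exact interval 12.6 to 15.1). Of the DTX-labelled gate cells 127 of 552 were members, a share of 23.0% (exact interval 19.6 to 26.7). The share in the library labelled DTX was the higher one and the intervals did not overlap. The gate itself held 34.9% of the PBS-labelled cells and 7.68% of the DTX-labelled cells that passed the limits, and as a share of those cells the members went the other way, with 4.82% in PBS and 1.77% in DTX. The 2 shares therefore have different denominators, and a higher share of gate cells stood beside a lower share of all cells.

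The difference between the libraries held at equal depth. Members had a median of 12027 UMIs per cell in PBS and 15097 in DTX, and gate cells without a *Crabp1* UMI had 11275 and 13789. When each gate cell was thinned to 5000 UMIs and shallower cells were left out (300 of 2907 in PBS, 17 of 552 in DTX), 9.40% of the PBS and 17.9% of the DTX-labelled gate cells kept at least 2 *Crabp1* UMIs. At least 1 UMI remained in 15.04% and 23.2% after thinning, against 19.4% and 28.8% before it. As a description of values that the rule used, a member held a median of 5 *Crabp1* UMIs in PBS and 10 in DTX, at the depths given, with a highest value of 103 and 160. *Crabp1* stood at 848 CPM in PBS-labelled members and 1173 CPM in DTX-labelled members.

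**Figure D1:**
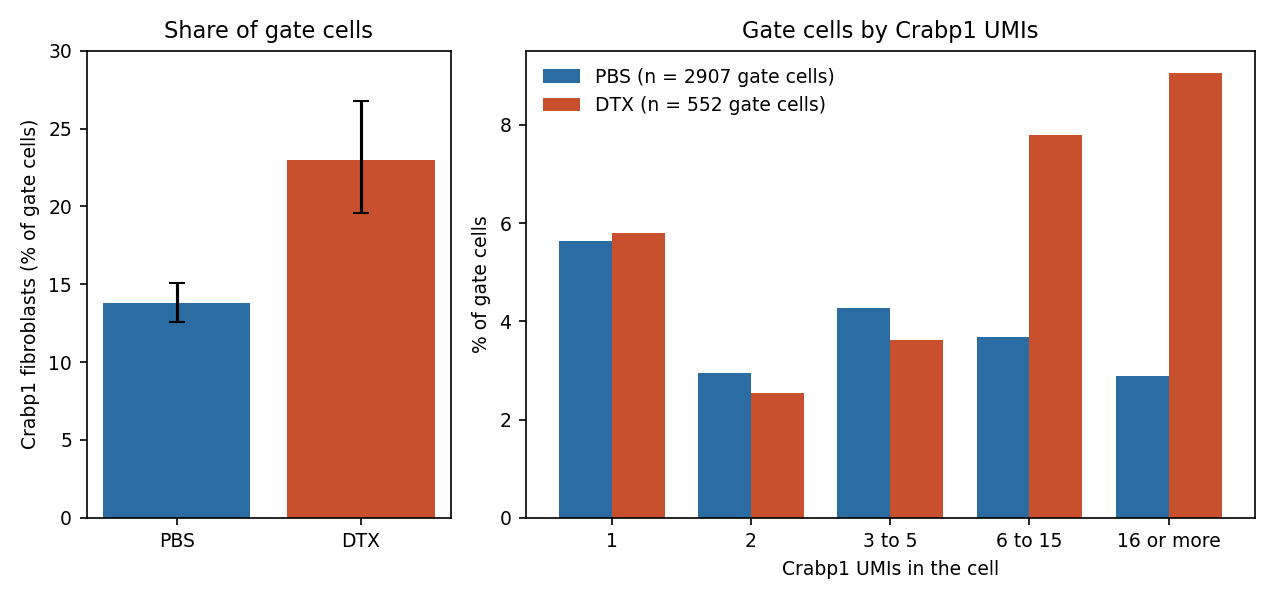
Left, *Crabp1* fibroblasts as a percentage of gate cells in each library, with exact 95% binomial intervals that cover counting error only; right, the percentage of gate cells that held 1, 2, 3 to 5, 6 to 15 and 16 or more *Crabp1* UMIs. The DTX bars are higher than the PBS bars from 6 UMIs upwards, and both libraries have similar bars at 1 and 2 UMIs.

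Free RNA in the droplets can give UMIs in cells that do not express a gene, and cells that should lack *Crabp1* show how often. Among cells with at least 20 *Lyz2* UMIs and hardly any collagen, 1.36% of 1322 PBS-labelled cells (median depth 6048 UMIs) and 0.905% of 3758 DTX-labelled cells (median depth 7458) held a *Crabp1* UMI. At the members' minimum of 2 UMIs these cells numbered 0 in PBS, for which the exact interval reaches 0.279%, and 5 in DTX. Both are far under the shares in the gate. Just outside the rule, 164 PBS and 32 DTX-labelled gate cells held exactly 1 *Crabp1* UMI, and just inside it 86 and 14 held exactly 2. A further 77 PBS and 52 DTX-labelled cells held at least 2 *Crabp1* UMIs but lay outside the gate. In 47 and 39 of them collagen and *Dcn* fell under 2% of UMIs, and 17 and 23 held at least 5 *Lyz2* UMIs. *Pecam1* was detected in 14 and 5, and a cell could fail several limits. The libraries shared 37 barcodes, and no barcode was a member in both. Among the 8% of cells with the highest Scrublet doublet scores in each library were 27 of 401 PBS-labelled members (6.73%) and 3 of 127 DTX-labelled members (2.36%). Beside them were 156 of 2342 PBS-labelled (6.66%) and 20 of 393 DTX-labelled gate cells (5.09%) without *Crabp1*.

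The gate chose cells by collagen and *Dcn*, so the level of the 11 fibroblast markers (71976.5 CPM in sum in PBS and 65577 CPM in DTX) was largely set by the rule. *Dcn* was read in members at 15344 CPM in PBS and 10371 CPM in DTX, and *Pdgfra*, the PDGF receptor of mesenchymal cells, which the rule did not use, at 133.9 and 136.4 CPM. The 7 endothelial markers summed to 3.84 and 5.28 CPM with *Pecam1*, *Vwf* and *Emcn* at 0 in both libraries. The 12 macrophage markers summed to 80.6 and 128 CPM, all of them detected, with *Lyz2* the most abundant in PBS at 18.2 CPM and *Fcer1g* in DTX at 23.5 CPM, beside 99.6 and 123 CPM in gate cells without *Crabp1*. The neutrophil list summed to 158 and 126 CPM, nearly all of it *Il1r2* (145.8 and 114.8 CPM), a decoy receptor that is not particular to neutrophils. Other lists were low, with pericyte markers at 22.8 and 16.8 CPM, melanocyte markers at 40.3 and 11.5 CPM (mostly *Mlana*, with *Dct* and *Tyrp1* at 0), and lymphocyte, mast cell, Schwann cell, adipocyte and skeletal muscle markers between 0.575 and 12.5 CPM.

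Keratinocyte RNA was the exception, and it separated the libraries. The 10 keratinocyte markers summed to 1965 CPM in PBS-labelled members and 83.6 CPM in DTX-labelled members, with *Lgals7* the most abundant in PBS at 593 CPM. In PBS 18 of 401 members drew at least 0.5% of their UMIs from these markers and carried 85.3% of them, whereas no DTX-labelled member did. Gate cells without *Crabp1* differed in the same way, with 67 such cells of 2342 in PBS and 1 of 393 in DTX. Without these cells the members' share was 13.6% in PBS and 23.0% in DTX. The comparisons below use all members unless it is said that these cells were left out.

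Within each library the members were set against gate cells without a single *Crabp1* UMI, 2342 in PBS and 393 in DTX. UMIs were summed over the cells of each side, 1 CPM was added before the log2 ratio, and a gene was used if the sides averaged at least 20 CPM and held at least 50 UMIs together. Of 5016 genes used in PBS, 139 were at least 2-fold higher in members (2.77%) and 111 at least 2-fold lower (2.21%). Of 5126 used in DTX, 151 were at least 2-fold higher (2.95%) and 207 lower (4.04%). In both libraries at once, 86 of 4818 genes were at least 2-fold higher (1.78%) and 95 lower (1.97%). The median log2 ratio of all genes used was 0.12 in each library, and with ratios centred on it the split in both libraries became 68 higher and 116 lower. Cells are not replicates, so these counts describe the libraries and carry no p-value. The members were chosen in the same cells, so the counts and ratios are a description. Intervals of log2 ratios are those of the ratio without the added CPM, and for low genes they can lie beyond the printed ratio.

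The 12 genes highest in the members, among genes with a mean of at least 50 CPM in each library, are given first. *F13a1*, the catalytic A chain of coagulation factor XIII, which crosslinks fibrin, stood at 158 CPM in PBS-labelled members and 4.48 CPM in cells without *Crabp1*, a log2 ratio of 4.85. In DTX the levels were 101 and 0.695 CPM, the lower one from 4 UMIs, and the log2 ratio was 5.91 (interval 5.80 to 9.07). *Igfbp2*, which binds insulin-like growth factors, was at 979.8 against 74.5 CPM in PBS and 569 against 42.7 CPM in DTX, a log2 ratio of 3.70 in each (intervals 3.64 to 3.79 and 3.54 to 3.94). Both genes were well above the other gate cells in both libraries, and *Igfbp2* was carried mainly by the members that held *F13a1*.

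*Col7a1*, the collagen of the anchoring fibrils that tie the epidermal basement membrane to the dermis, was at 140.2 CPM in PBS-labelled members against 9.15 CPM, and at 141.7 CPM in DTX-labelled members against 11.5 CPM. The log2 ratios were 3.80 (3.73 to 4.15) and 3.52 (3.24 to 4.03). *Grem1*, an antagonist of bone morphogenetic proteins, was at 270.3 against 23.8 CPM in PBS and 259 against 34.1 CPM in DTX, log2 ratios of 3.45 and 2.89. For these genes members of both libraries had nearly equal levels, and the lower ratio of *Grem1* in DTX came with a higher level in the other cells.

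*Coch*, the gene of the secreted matrix protein cochlin, was at 749 against 80.4 CPM in PBS and 1137 against 254 CPM in DTX, log2 ratios of 3.20 (3.14 to 3.30) and 2.16 (2.07 to 2.26). This gene depended on the gate, since with collagen and *Dcn* at 4% of UMIs or more its DTX log2 ratio was -2.11. *Gldn*, which codes for gliomedin, an adhesion protein best known from nodes of peripheral nerves, had log2 ratios of 3.79 and 3.94. *Col23a1*, a transmembrane collagen, had log2 ratios of 2.53 and 2.31, and *Gpc1*, a heparan sulphate proteoglycan of the cell surface, of 2.25 and 2.48. *Prdm1*, a transcriptional repressor known in papillary dermis, was at 100.5 against 23.6 CPM in PBS and 95.1 against 19.3 CPM in DTX. The remaining 3 of the 12 highest genes were *Bpgm* (2.80 and 2.01), a red cell glycolysis enzyme, *Lxn* (1.92 and 1.66), an inhibitor of carboxypeptidases, and *F2r* (1.76 and 1.64), a thrombin receptor.

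The 12 genes lowest in the members, with the same limit on the mean, follow. *Lbp*, which presents bacterial lipopolysaccharide to its receptors, was at 36.3 CPM in PBS-labelled members against 438 CPM in cells without *Crabp1* and at 43.2 against 611 CPM in DTX, log2 ratios of -3.56 (-3.81 to -3.39) and -3.79 (-4.14 to -3.52). *Prg4*, the lubricin of joint and fascia surfaces, was at 34.0 against 374 CPM in PBS and 72.1 against 906 CPM in DTX, log2 ratios of -3.43 and -3.63. *Mgp*, an inhibitor of calcification, was at 43.5 against 507 CPM in PBS and 15.4 against 1101 CPM in DTX, log2 ratios of -3.51 and -6.07. What *Mgp* remained was held by few members, with 78.4% of its 227 PBS UMIs in 5 cells. *Ptx3*, a soluble pattern recognition protein, had log2 ratios of -2.57 and -2.83, and *Cygb*, the globin of fibroblast-like cells, of -3.30 and -3.33. Also among the 12 lowest were *Col14a1* and *Pi16*, genes of reticular and fascia fibroblasts (-2.42 and -2.41; -2.35 and -2.46), *Plac8* (-2.64 and -2.31), *Igfbp4* (-2.25 and -2.53), *Clec3b* (-2.14 and -2.96), *Ifi27l2a* (-2.10 and -2.49) and *Thbs3* (-2.09 and -2.47).

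**Figure D2:**
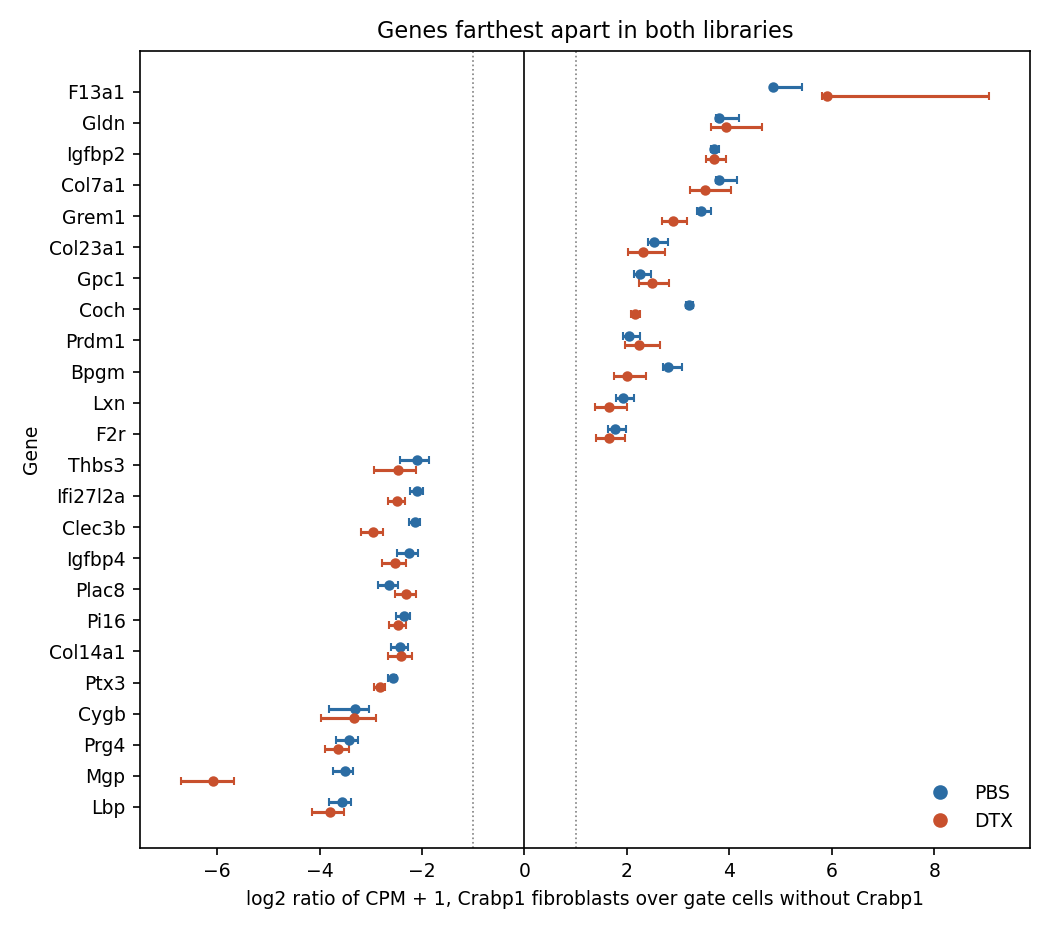
Log2 ratio of CPM + 1, *Crabp1* fibroblasts over gate cells without a *Crabp1* UMI, for the 12 genes highest and the 12 lowest in both libraries. Only genes with a mean of at least 50 CPM in each library were ranked. Points are the ratios in PBS and DTX, bars the 95% counting intervals of the ratio without the added CPM, and dotted lines mark a 2-fold difference. All 24 genes lie on the same side in both libraries, *F13a1* has the widest interval in DTX, and *Mgp* is the gene on which the libraries lie farthest apart.

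Genes of the dermal layers split by layer. Of 16 genes listed for papillary dermis and upper wound fibroblasts 12 were used in each library, and 5 were at least 2-fold higher in PBS-labelled members and 6 in DTX-labelled members, with none lower. The median log2 ratio of the list was 0.74 in PBS and 0.77 in DTX, against 0.12 over all genes. The 5 genes higher in both libraries were *Col7a1*, *Col23a1*, *Prdm1*, *Trps1*, a GATA-type repressor, and *Prss35*, a serine protease-like secreted protein. *Prss35* was at 52.7 against 1.18 CPM in PBS and 75.9 against 7.65 CPM in DTX. It was found in only 49 of 401 PBS-labelled and 22 of 127 DTX-labelled members, and 5 cells held 41.5% and 62.0% of its UMIs. By contrast *Dpp4*, another gene of this list, was slightly lower in members of both libraries (log2 ratios of -0.38 and -0.60).

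Of 16 genes listed for reticular dermis, adipocyte lineage and fascia 14 were used, and 9 were at least 2-fold lower in PBS-labelled members and 12 in DTX-labelled members, with none higher. The median log2 ratio was -1.72 in PBS and -1.71 in DTX. *Gpx3*, a secreted glutathione peroxidase, was at 611 against 2666 CPM in PBS and 539 against 1975 CPM in DTX. *Mfap5*, a microfibril protein of fascia and reticular fibroblasts, was at 137 against 552 CPM and 189 against 674 CPM. *Plac8*, *Pi16*, *Prg4*, *Col14a1*, *Sema3c*, *Cd55* and *Fap* were the other genes at least 2-fold lower in both libraries. *Ly6a*, the abundant Sca-1 antigen, was among the genes that passed in DTX alone, with log2 ratios of -0.52 in PBS and -1.12 in DTX, so it followed the same direction less steeply.

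In the retinoid list, which holds the binding proteins, enzymes and receptors of retinoic acid, 1 of 7 genes used was at least 2-fold higher in PBS and 2 of 9 in DTX, with 2 lower in DTX. *Cyp26b1*, the enzyme that breaks retinoic acid down, was the gene higher in both, at 419 against 161 CPM in PBS and 314 against 101 CPM in DTX, log2 ratios of 1.37 and 1.63. *Fabp5*, which carries fatty acids and retinoic acid, was at 206 against 128 CPM in PBS and 240.2 against 48.1 CPM in DTX. Its level rested on few members, with 38.5% of its UMIs in 5 cells in PBS and 52.6% in 5 cells in DTX. *Rdh10*, an enzyme on the way to retinoic acid, was lower, at 48.0 against 80.6 CPM in PBS and 58.6 against 169 CPM in DTX, at least 2-fold in DTX alone. The synthesis enzyme *Aldh1a1* was at 31.8 against 52.5 CPM and 22.1 against 35.1 CPM. The median log2 ratio of the list was -0.0060 in PBS and -0.10 in DTX, beside 0.12 in each library over all genes used.

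In the Wnt list 3 of 10 genes used were higher and 3 lower in PBS, and 3 of 12 higher and 4 lower in DTX. The ligand *Wnt5a* was at 80.0 against 10.6 CPM in PBS and 53.3 against 9.73 CPM in DTX, log2 ratios of 2.80 (2.69 to 3.13) and 2.34 (1.98 to 2.94). *Nkd2*, a feedback inhibitor inside the cell (1.54 and 1.25), and *Rspo1*, a secreted enhancer of Wnt signals (1.35 and 1.00), were higher in both as well. *Sfrp1*, a secreted antagonist, was lower (-2.12 and -1.25), and *Sfrp4*, another, was at 8.63 against 63.8 CPM in PBS and at 0.961 against 126 CPM in DTX, the members' level there resting on 2 UMIs (interval of the log2 ratio -10.08 to -5.17).

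In the list of TGF-beta, activin and BMP genes 4 of 23 were higher in PBS and 3 of 22 in DTX, with none lower. The 3 genes higher in both were *Grem1*, the ligand *Bmp2*, at 48.0 against 21.4 CPM in PBS and 46.6 against 16.7 CPM in DTX, and the activin subunit *Inhbb* (1.05 and 1.15). *Id1*, a target of BMP signals, passed in PBS alone (log2 ratio 1.69). Members thus had more RNA of both a BMP ligand and a BMP antagonist. In the list of growth factors, receptors and IGF-binding proteins 2 genes of 16 were higher and 4 lower in PBS, and 2 of 17 higher and 3 lower in DTX. Among the IGF-binding proteins, *Igfbp2* and *Igfbp5* were higher in members (*Igfbp5* at 705 against 288 CPM and 762 against 264 CPM) and *Igfbp4* and *Igfbp6* lower. In the Hedgehog and Notch list none of 5 genes was past 2-fold in either library.

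Matrix genes past 2-fold lay on both sides. None of 4 other fibrillar collagens was past 2-fold in PBS, and 1 of 5 (*Col11a1*) in DTX. Of 13 other collagens 2 were higher and 1 lower in PBS, and 3 higher and 2 lower in DTX, with a median log2 ratio of 0.45 in PBS and 0.62 in DTX. The genes shared by both libraries were *Col7a1*, *Col23a1* and, lower, *Col14a1*. *Col6a3*, a subunit of beaded collagen VI and the most abundant of this list in members, lay just inside 2-fold (0.98 and 0.97). In the proteoglycan list *Fmod* (fibromodulin, 3.44 and 3.17) and *Gpc1* were higher and *Ogn* (-1.57 and -1.52) and *Gpc3* (-2.35 and -2.39) lower in both libraries, out of 17 genes used in PBS and 19 in DTX, with 2 more lower in DTX.

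Among 19 provisional matrix and matricellular genes 2 were higher and 3 lower in PBS, and 3 higher and 5 lower in DTX. *Tnc*, a tenascin of healing wounds, was at 792 against 370.2 CPM in PBS and 1511 against 479 CPM in DTX, and its relative *Tnn* at 48.0 against 7.86 CPM and 115 against 14.9 CPM. *Fn1*, fibronectin, was at 498 against 1214 CPM and 578 against 1449 CPM, and *Tnxb* and *Thbs4* were lower too. The elastic fibre list had 2 of 13 genes lower in both, *Mfap5* and *Emilin2*. The crosslinking list had 1 of 19 lower in PBS and 2 of 20 in DTX, with *Plod2* the gene in both. The list of matrix proteases and their inhibitors had 1 higher and 2 lower of 18 in PBS, and 1 higher and 6 lower of 20 in DTX, with *Adamts5* and *Fap* lower in both.

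Of 16 contractile genes used, 3 were at least 2-fold higher in PBS and 4 in DTX with none lower, and the median log2 ratio was 0.42 in PBS and 0.52 in DTX. *Myl9*, a myosin light chain, was at 56.6 against 15.8 CPM and 73.5 against 30.4 CPM, and *Cnn2*, a calponin, had log2 ratios of 1.25 and 1.59. *Acta2*, the smooth muscle actin of myofibroblasts, was at 162 against 85.6 CPM in PBS and 292 against 108 CPM in DTX, and reached 2-fold in DTX alone. *Tagln*, a calponin-related actin binder, passed in PBS alone (1.23 and 0.89) and *Tpm2*, a tropomyosin, in DTX alone (0.71 and 1.06).

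Of 19 complement and coagulation genes used, 8 were at least 2-fold lower in PBS and 14 in DTX, with none higher, and the median log2 ratio was -0.84 in PBS and -1.34 in DTX. *C3*, the central complement protein, was at 468 against 1528 CPM in PBS and 271 against 2453 CPM in DTX, log2 ratios of -1.70 (-1.77 to -1.65) and -3.17 (-3.30 to -3.06). *C1s1*, *C2*, *C4b*, *Cfb*, *Cd55* and *F3* were among the other genes lower in both. Of the cytokine and chemokine list 5 of 26 were lower in PBS and 9 of 27 in DTX, with 2 higher in DTX and medians of -0.29 and -0.52. *Cxcl1*, which draws neutrophils, was at 2283 against 4776 CPM in PBS and 2695 against 8045 CPM in DTX, and *Il33*, *Cxcl5*, *Cxcl14* and *Csf3* were lower in both as well. Not all chemokines were at least 2-fold lower. *Ccl2* was lower within 2-fold, with log2 ratios of -0.32 and -0.95, and *Ccl8* was higher in members, with 0.93 and 0.90.

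The other lists gave few genes past 2-fold. They were, in PBS, 1 of 13 interferon-stimulated genes higher and 1 lower, 1 of 16 glycolysis and hypoxia genes higher and 1 lower, 1 of 22 immediate early and heat shock genes lower, none of 11 integrins and laminins, 1 of 14 positional transcription factors higher and 1 lower, 1 of 9 cholesterol genes higher, and none of the single cell cycle gene used. In DTX they were 1 of 14 interferon genes lower, 2 of 16 glycolysis genes lower, 2 of 22 immediate early and heat shock genes lower, 1 of 12 integrins and laminins lower, 1 of 14 positional factors lower, 1 of 13 cholesterol genes higher and 2 of 4 cell cycle genes higher. In the follicle list *Enpp2*, an enzyme that makes lysophosphatidic acid, was at 138 against 31.4 CPM and 128 against 59.4 CPM, the only one of 3 genes used in PBS that passed, beside 2 higher and 1 lower of 5 in DTX.

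Several of the most abundant products of wound fibroblasts stood within 2-fold of the other gate cells in both libraries. *Lum*, the collagen-binding proteoglycan lumican, was at 4284 against 4259 CPM in PBS and 2863 against 2871 CPM in DTX. *Tnfaip6*, which remodels hyaluronan, was at 5368 against 4851 CPM and 4148 against 4912 CPM. The protease *Mmp3* was at 3384 against 2279.6 CPM and 1992 against 1553 CPM. Members and other gate cells were thus close in these genes.

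Levels changed by degrees with the number of *Crabp1* molecules in a cell. Gate cells were sorted by their *Crabp1* UMIs into bins of 0, 1, 2, 3 to 5, 6 to 15 and 16 or more, leaving out cells with keratinocyte RNA, which gave 2275, 154, 82, 116, 105 and 80 cells in PBS and 392, 32, 14, 20, 43 and 50 cells in DTX. *Col7a1* in PBS went from 9.05 CPM at 0 UMIs through 26.1, 40.8, 81.2 and 151 CPM to 294 CPM in the highest bin. *Prdm1* in PBS went from 19.6 CPM through 51.6, 74.5, 89.4 and 108.9 CPM to 106 CPM. *Gpx3* in PBS went from 2750.0 CPM through 1319, 1047, 829.6 and 653 CPM to 90.7 CPM. The bins are made from the UMIs that chose the members, and these genes were named for their difference between members and cells without *Crabp1*, so the directions are a description. Cells with a single *Crabp1* UMI lay between those with none and those with 2 for these 3 genes in PBS.

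The lower dermis list as a sum fell from 8140 CPM at 0 UMIs to 4880 CPM at 1 UMI and 2183 CPM in the highest bin in PBS, and from 9607 to 5422 and 2859 CPM in DTX. The upper dermis list went from 657 to 796 and 1587 CPM in PBS and from 709 to 846 and 1587 CPM in DTX. Not every bin followed the order, since *Col7a1* in DTX stood at 82.4 CPM at 1 UMI and 44.9 CPM at 3 to 5 UMIs, in bins of 32 and 20 cells. *Lbp* showed less of a slope than a step, from 452 CPM at 0 UMIs to 130 CPM at 1 and 39.8 CPM at 2 UMIs in PBS, with 9.41 CPM in the highest bin. Median depth differed between the outer bins, from 11178 UMIs at 0 to 13989 UMIs in the highest bin in PBS, and its part in the gradient was not tested. The median share of mitochondrial UMIs differed between these bins too, from 2.99% to 4.13% in PBS and from 4.08% to 4.62% in DTX. Over all members it was 3.83% in PBS and 4.64% in DTX, against 3.02% and 4.08% in cells without *Crabp1*. Its part was not tested either.

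Abundant matrix genes did not all follow the same course. *Col1a1* in PBS stood at 15718 CPM at 0 UMIs, 17233 CPM at 2 UMIs and 8882 CPM at 16 or more UMIs. In DTX it stood at 12189.5 CPM, 23948 CPM and 10355.5 CPM. *Col1a1* is one of the gate genes, so these values describe the members and are no result. *Sparc*, which the rule did not use and which codes for a collagen-binding glycoprotein, was at 17669.9, 19995 and 12180.0 CPM in the same PBS bins and at 13088, 20111 and 11251 CPM in DTX. The 15 other collagens as a sum were instead at 3316 CPM at 0 UMIs and 5857 CPM in the highest bin in PBS, and at 3973 and 6593 CPM in DTX. The summed proliferation list stood at 102 CPM at 0 UMIs and 555 CPM in the highest bin in PBS, and at 185 and 478 CPM in DTX. The proliferation sum was not even across the bins, with 161 CPM at 2 UMIs and 73.0 CPM at 3 to 5 UMIs in PBS. Among all members, without thinning, a UMI of *Mki67* was found in 32 of 401 in PBS and 13 of 127 in DTX. One of *Pcna*, the DNA replication clamp of the same list, was found in 145 and 67. Genes of this list differed in how few members held them. For *Top2a* 5 cells held 51.1% of the UMIs in PBS and 92.3% in DTX, and for *Pcna* 16.4% and 33.6%.

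**Figure D3:**
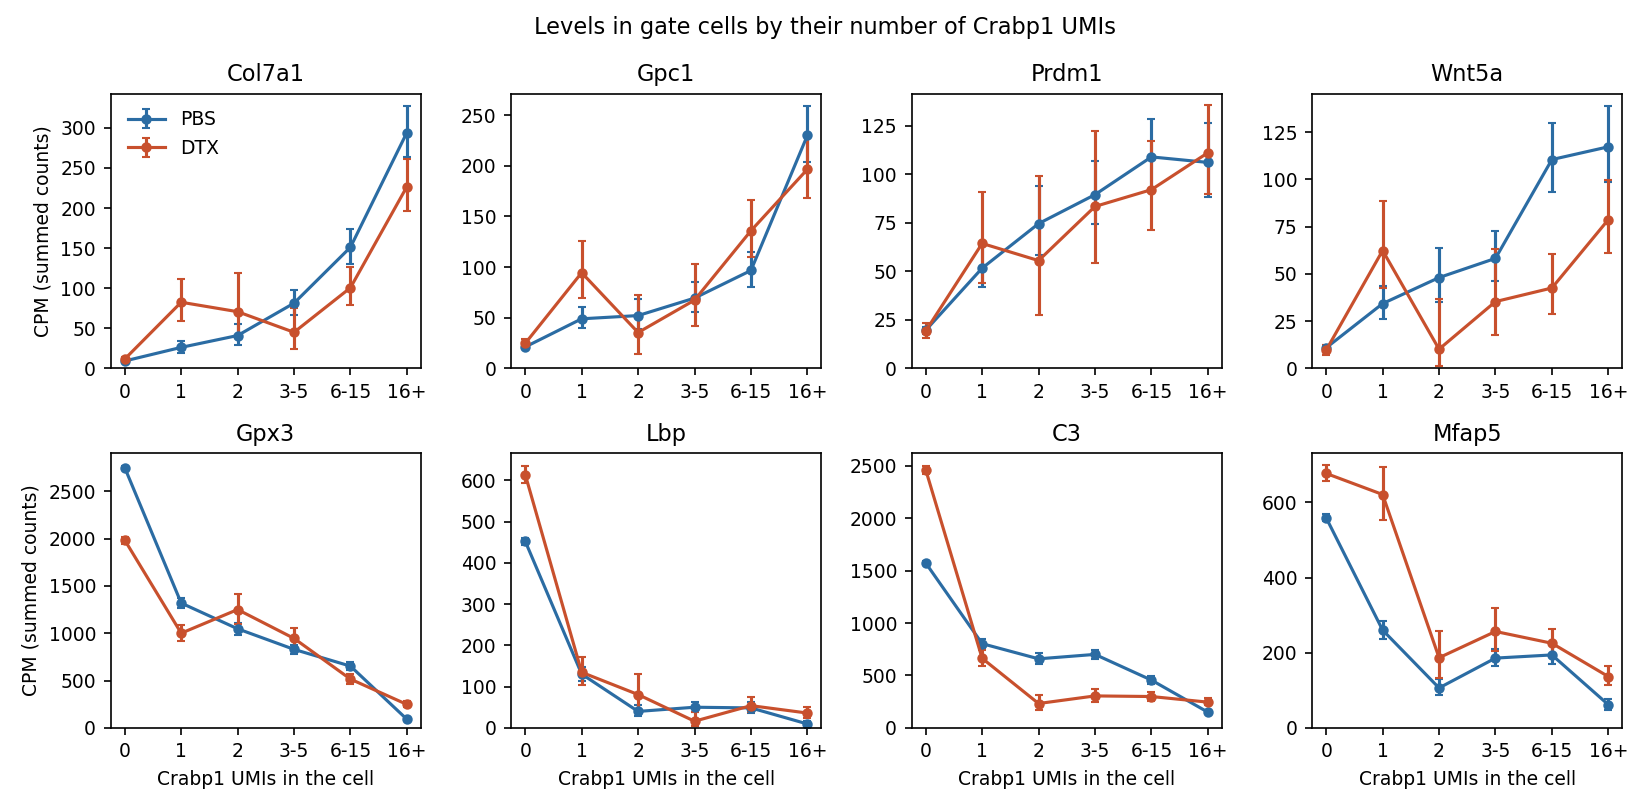
CPM summed over gate cells with 0, 1, 2, 3 to 5, 6 to 15 and 16 or more *Crabp1* UMIs, in PBS and DTX, for 4 genes higher and 4 genes lower in *Crabp1* fibroblasts; bars are exact Poisson 95% intervals (counting error only) and cells with keratinocyte RNA are left out. *Col7a1* in PBS climbs from 9.05 to 294 CPM and *Gpx3* falls from 2750.0 to 90.7 CPM, and the DTX lines are less even at the bins of 14 and 20 cells.

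*F13a1* and *Coch* were each found in some of the members. This split was chosen after the values had been seen and is a description. With keratinocyte RNA cells left out, 81 of 383 PBS-labelled members (21.1%) held *F13a1* and no *Coch*, 72 (18.8%) *Coch* and no *F13a1*, 5 both and 225 neither. In DTX the counts were 18, 27, 1 and 81 of 127, too few to read an overlap from. A gene can be missed in a cell by low depth, and the *F13a1* and *Coch* cells had fewer UMIs than the cells with neither, with medians of 10865, 9302 and 12837 in PBS and 12927, 10359 and 17170 in DTX.

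*F13a1* cells carried most of the *Igfbp2*. It stood at 3811 CPM in the PBS-labelled *F13a1* cells, 87.9 CPM in the *Coch* cells and 388 CPM in cells with neither, and at 3549, 73.3 and 216 CPM in DTX. *Mme*, the membrane endopeptidase neprilysin, known from the dermal papilla and sheath, was at 644 CPM in the PBS-labelled *F13a1* cells against 43.5 CPM in cells with neither, and at 511 against 25.2 CPM in DTX. *Wnt5a* was at 219 against 54.4 CPM in PBS and at 182 against 39.4 CPM in DTX. *S100a4*, a calcium-binding protein, was at 3834 against 950.3 CPM and at 3854 against 885 CPM. These 4 genes were higher in the *F13a1* cells of both libraries.

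Some genes were low in the same cells and others were not. *Postn*, the matricellular protein periostin, was at 33.3 CPM in PBS and 25.4 CPM in DTX-labelled *F13a1* cells against 1028 and 1448 CPM in cells with neither, and *Acta2* at 5.37 and 16.9 CPM against 259 and 345.5 CPM. *Gpx3* was at 153 and 4.23 CPM against 754 and 697 CPM. *Ctsk*, the collagen-degrading protease cathepsin K, was at 4117 and 3693 CPM against 3974 and 2530.2 CPM, and *Gpnmb* at 887 and 761 CPM against 615 and 384 CPM. *F13a1* is also a macrophage gene. The 12 macrophage markers, of which the gate limits *Lyz2*, summed to 72.0 CPM in the PBS and 106 CPM in the DTX-labelled *F13a1* cells and to 87.9 and 145 CPM in cells with neither, and their part in the *F13a1* level was not tested.

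*Coch* cells had a profile of their own. *Fmod* was at 852 CPM in PBS and 415 CPM in DTX-labelled *Coch* cells, against 8.05 and 8.84 CPM in cells with neither and 0 in *F13a1* cells. *Tnmd*, the tendon protein tenomodulin, was at 403 and 255 CPM against 51.2 and 14.3 CPM, and *Col11a1*, a fibrillar collagen of cartilage and tendon, at 115 and 209 CPM against 4.51 and 14.96 CPM. *Enpp2* was at 499 and 459 CPM against 59.3 and 36.7 CPM. These cells sat close to the edge of the gate, with a median of 3.90% of UMIs from the gate genes in PBS and 3.15% in DTX, against 6.31% and 5.07% in cells with neither. Their *Acta2* was at 14.4 CPM in PBS and 261 CPM in DTX, and their *Myl9* at 44.7 and 65.2 CPM with overlapping intervals. *Fmod* rested on few cells, since 5 cells held 44.4% of its 626 UMIs in all PBS-labelled members. In DTX-labelled members 5 cells held 79.5% of its 166 UMIs.

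In members with neither gene some genes of activated wound fibroblasts were higher than in *F13a1* cells. *Cthrc1*, a secreted protein of collagen-producing wound cells, was at 420.2 CPM in PBS and 599.9 CPM in DTX, against 49.4 and 42.3 CPM in *F13a1* cells and 33.1 and 247 CPM in *Coch* cells. *Lrrc15*, a membrane protein of activated fibroblasts, was at 246 CPM in both libraries, against 23.6 and 76.1 CPM in *F13a1* cells and 41.8 and 342 CPM in *Coch* cells. *Postn* in *Coch* cells was at 535 CPM in PBS and 2938 CPM in DTX. Leaving aside the few cells with both genes, in PBS these genes were highest in cells with neither gene, and in DTX *Lrrc15* and *Postn* were higher in *Coch* cells.

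**Figure D4:**
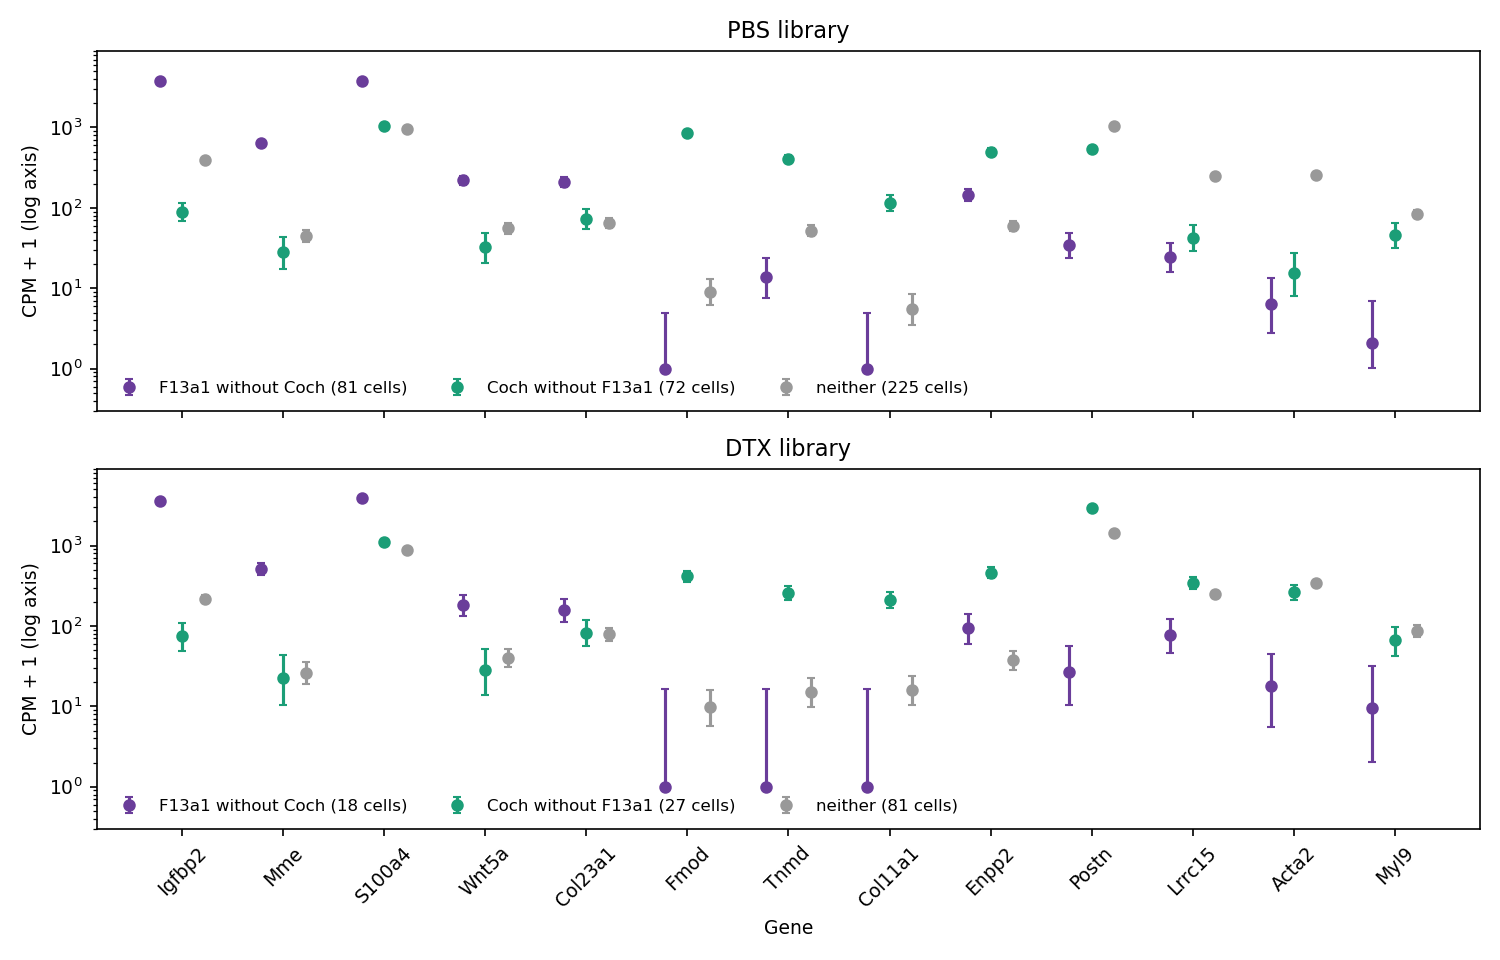
CPM + 1 on a log axis for 13 genes in *Crabp1* fibroblasts that held *F13a1* without *Coch*, *Coch* without *F13a1*, or neither, in the libraries labelled PBS and DTX, with exact Poisson 95% intervals (counting error only). *Igfbp2*, *Mme* and *S100a4* are highest in *F13a1* cells and *Fmod*, *Tnmd* and *Col11a1* in *Coch* cells of both libraries, and *Acta2* of *Coch* cells is at 14.4 CPM in PBS and 261 CPM in DTX.

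Of a list of *Gpnmb*, *En1*, *Pdgfra* and *Ctsk* none of 4 genes was past 2-fold in either library. *Gpnmb*, a transmembrane glycoprotein, was at 639 against 408 CPM in PBS and 382 against 239 CPM in DTX. After thinning to 5000 UMIs a *Gpnmb* UMI was found in 80.2% of PBS-labelled members against 66.4% of cells without *Crabp1*, and in 61.9% of DTX-labelled members against 49.5%. *En1*, the transcription factor of the dorsal dermal lineage, was at 121 against 158 CPM in PBS and 130.2 against 137 CPM in DTX, found in 37.3% against 43.0% and 38.1% against 36.5% of thinned cells. Both genes were thus present in members of both libraries. Before thinning, *Gpnmb* was found in 83.0% and 75.6% of members and *En1* in 57.1% and 66.1%.

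For some genes the share of cells with a UMI differed between members and other cells, and for others it did not follow the level. *Coch*, far higher in members by level, had a UMI in 15.1% of thinned PBS-labelled members (interval 11.6% to 19.1%) against 11.1% (9.81% to 12.6%) of cells without *Crabp1*, and in 19.8% (13.3% to 27.9%) against 15.9% (12.3% to 20.0%) in DTX, so the intervals overlapped in each library. *Saa3* was found in 40.7% of PBS-labelled and 40.5% of DTX-labelled members, against 49.5% and 51.6% of cells without *Crabp1*. Its intervals were apart in PBS and overlapped in DTX. *Prdm1* had a UMI in 34.1% of thinned PBS-labelled members against 8.43%, and in 33.3% of DTX-labelled members against 8.20%. *Plac8* had one in 5.56% against 28.4% in PBS and in 19.8% against 51.3% in DTX. *Mki67*, a proliferation marker, had one in 3.97% against 1.69% in PBS and in 3.97% against 3.17% in DTX, from 15 and 5 members, and the exact intervals of members and other cells overlapped in each library. *Top2a*, another such marker, had one in 3.70% (2.04% to 6.14%) against 1.16% (0.742% to 1.72%) in PBS, without overlap. In DTX it had one in 3.17% against 1.32%, from 4 members, with intervals that overlapped. *Mest* was found in 1.32% and 2.38% of members and 3.23% and 4.50% of cells without *Crabp1*.

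The libraries are compared here by their labels. Of 5193 genes used, 41 were at least 2-fold higher in DTX-labelled members (0.79%) and 74 lower (1.42%). Without keratinocyte RNA cells 38 of 5145 were higher (0.739%) and 41 lower (0.797%), so that cells with keratinocyte RNA in the library labelled PBS bore on the count of lower genes. In gate cells without *Crabp1* 49 of 4903 genes were higher in DTX (0.999%) and 53 lower (1.08%). With ratios centred on their median 32 genes were higher and 86 lower in DTX-labelled members. The medians over all genes used were 0.07 in members and 0.08 in cells without *Crabp1*. The treatment, the mice and the capture of each library cannot be told apart.

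Several of the genes highest in DTX-labelled members rested on very few cells. *Tslp*, a cytokine of epithelial cells, was at 10.7 CPM in PBS and 175 CPM in DTX-labelled members, a log2 ratio of 3.91, and 99.7% of the 365 DTX UMIs came from 5 of 127 cells. *H2-Ab1*, a class II antigen presentation gene, was at 47.4 and 122 CPM (1.34), and 1 cell held 208 of the 253 DTX UMIs. *Spp1*, osteopontin, was at 36.3 and 137 CPM (1.89), with 65.3% of the DTX UMIs in 5 cells. *Ptn*, a heparin-binding growth factor, was at 20.9 and 85.5 CPM (1.98), with 25 of 127 DTX-labelled members holding a UMI and 55.1% of the UMIs in 5 cells. At 5000 to 20000 UMIs per cell the ratio turned to -1.13 for *H2-Ab1* and -0.037 for *Spp1*. Of these 4 genes *Ptn* was the one least bound to a few cells.

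Some genes of cholesterol synthesis were spread over more cells. *Cyp51*, lanosterol demethylase, was at 39.1 CPM in PBS and 99.4 CPM in DTX-labelled members, a log2 ratio of 1.32 (1.06 to 1.63), with a UMI in 77 of 127 DTX-labelled members. *Fdps*, farnesyl diphosphate synthase, was at 39.5 and 99.4 CPM (1.31), and *Hmgcs1*, an early enzyme of the pathway, at 62.1 and 144 CPM (1.20). Of 13 cholesterol genes used, 3 were at least 2-fold higher in DTX-labelled members and none lower, with a median log2 ratio of 0.73. Cells without *Crabp1* showed the same direction, with 3 of 10 higher and a median of 0.82. Without keratinocyte RNA cells 5 of 13 were at least 2-fold higher in DTX-labelled members.

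The remaining genes among the 10 highest with a mean of at least 50 CPM were *Serpine2* (1.55), an inhibitor of thrombin and plasminogen activators, *Tnn* (1.24), *Itm2a* (1.23) and *Ereg* (1.21), a ligand of the EGF receptor. These too rested on few cells, with 46.3%, 56.5%, 51.6% and 48.1% of their DTX UMIs in 5 cells. *Postn* was at 733 CPM in PBS and 1550.3 CPM in DTX-labelled members (1.08), and *Saa3*, an acute phase protein, at 3564 and 7158 CPM (1.01), with 51.6% of its DTX UMIs in 5 cells. The proliferation list had 2 of 4 genes higher in DTX-labelled members, *Cenpa* (2.09) and *Birc5* (1.08), and 64.3% of the 126 *Cenpa* UMIs in DTX-labelled members lay in 5 cells. *Cxcl14*, a chemokine of skin, was at 15.9 and 77.8 CPM in members (2.22) and at 67.0 and 341 CPM in cells without *Crabp1* (2.33), but 122 of its 162 UMIs in DTX-labelled members came from 1 cell.

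The 10 genes lowest in DTX-labelled members, with the same limit on the mean, were *Ly6g6c*, *Sprr1a*, *Krtdap*, *Cst6*, *Perp*, *Lgals7*, *Lypd3*, *Calm4*, *Dmkn* and *Ly6d*, with log2 ratios from -6.18 to -4.77. They are genes of the epidermis, and without keratinocyte RNA cells their ratios lay between -2.78 and -1.64. With those cells left out, the lowest among genes with a mean of at least 50 CPM in the remaining members were *Gm47283* (-4.25), *Ace* (-1.76), *Csf1* (-1.59), *Apoe* (-1.37), *Pcolce2* (-1.30), *Selenop* (-1.25), *Stat5b* (-1.23), *Akap12* (-1.20), *Ccl8* (-1.16) and *Mme* (-1.09). *Csf1*, the growth factor of macrophages, was at 599 CPM in PBS and 205 CPM in DTX-labelled members, and at 908 and 548 CPM in cells without *Crabp1*. *Apoe*, a lipid carrier, was at 1148 and 402 CPM in members and 1819.6 and 658 CPM in cells without *Crabp1*. Both were lower in DTX in gate cells of both kinds, *Csf1* by at least 2-fold in members alone (log2 ratio -0.73 in cells without *Crabp1*).

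**Figure D5:**
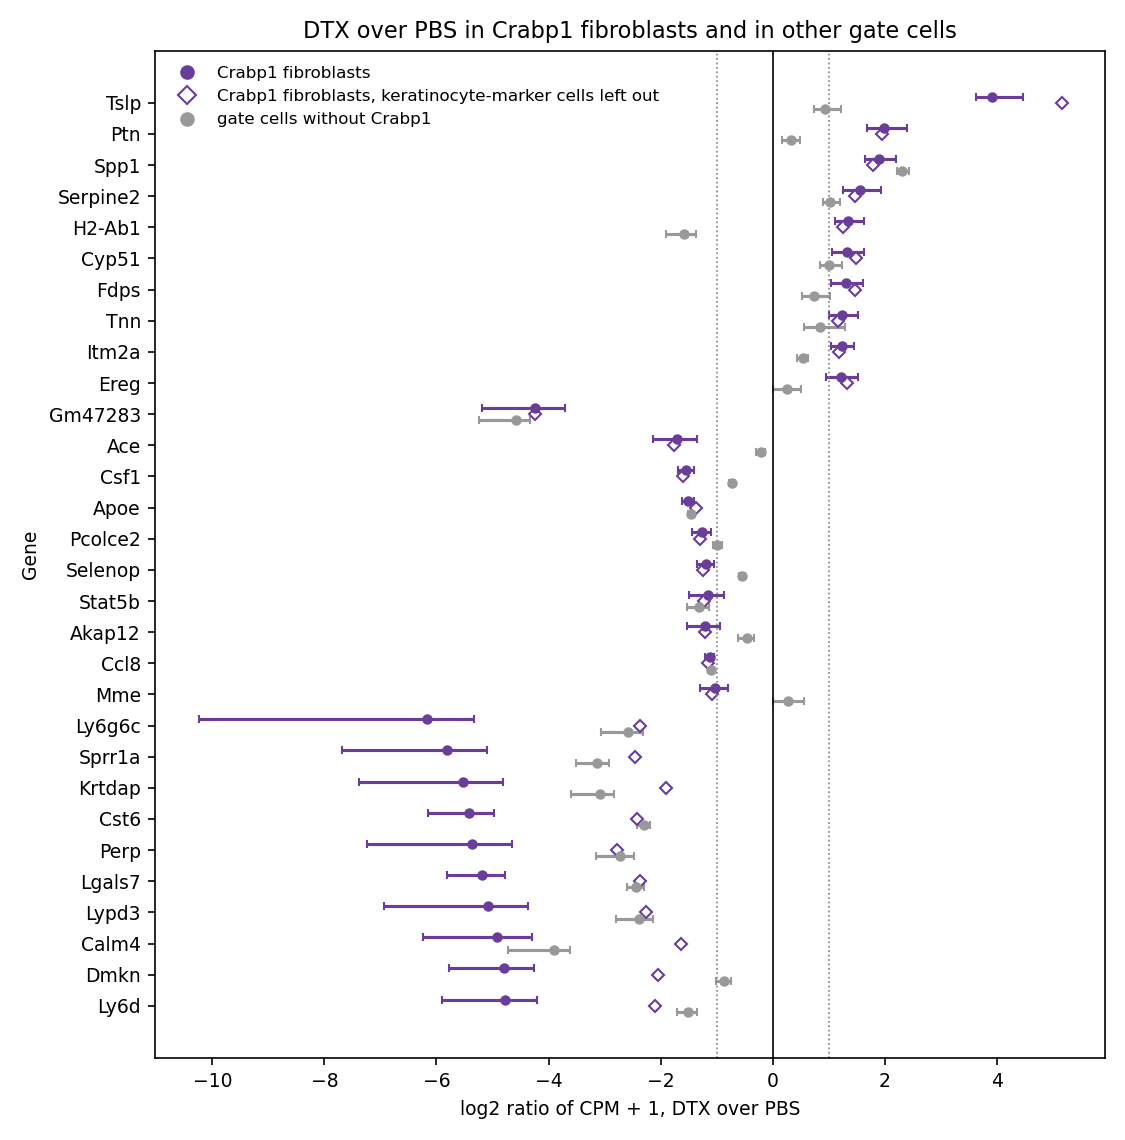
Log2 ratio of CPM + 1, DTX over PBS, in *Crabp1* fibroblasts (all members, and with keratinocyte-marker cells left out) and in gate cells without *Crabp1*, for the 10 genes with a mean of at least 50 CPM that were highest in DTX-labelled members and the genes lowest with and without those cells. Bars are 95% counting intervals of the ratio without the added CPM, and dotted lines mark a 2-fold difference. The 10 epidermal genes at the bottom move from between -6.18 and -4.77 to between -2.78 and -1.64 when the keratinocyte-marker cells are left out, and *H2-Ab1* and *Mme* lie on opposite sides of 0 in members and other gate cells.

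*Gm47283* separated the libraries in every kind of cell looked at. This transcript, annotated on the Y chromosome (GRCm38, chrY:90784738-90816464, plus strand) was at 172 CPM in PBS and 8.17 CPM in DTX-labelled members, at 199 and 7.30 CPM in gate cells without *Crabp1* and at 129 and 2.09 CPM in the *Lyz2* cells. *Mid1*, on the X chromosome, was at 50.6 and 8.17 CPM in members and at 142 and 1.76 CPM in *Lyz2* cells, and *Ifi202b* at 108 and 7.69 CPM in members and at 216 and 32.4 CPM in *Lyz2* cells. *Ddx3y*, another Y-linked gene, was at 123 and 108 CPM in members. Both libraries are labelled with the same strain, and the part of these genes' difference in the comparison of DTX with PBS was not tested.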

How the data were processed

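The authors sorted live cells of pooled wounds and captured them with the 10x Genomics 3' kit (v3), and the labels name Cell Ranger 6.1.1 and mm10, whereas the methods name another release. The matrices as deposited hold UMI counts without any scaling. Kept cells had 500 genes or more and no more than 6% of UMIs from mitochondrial genes. Doublets were removed only in an alternative with Scrublet. Counts of 31053 genes were summed over cells and scaled to CPM, with exact binomial, Poisson and conditional binomial 95% intervals. Python 3.11.15 was used, with scanpy 1.11.5, pandas 2.3.3, scipy 1.17.1, numpy 2.4.6 and matplotlib 3.10.9 (seed 1), and the calculation was tested on simulated data. Libraries are named by their labels. A call is a 2-fold difference, since 1 library per condition allows no test.

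The members, the 26 gene lists and the 12 marker lists were chosen with earlier results of these data known. Named genes are the genes of the rule, the 12 highest and 12 lowest in members by the smaller of both libraries' log2 ratios and the 10 highest and 10 lowest in DTX over PBS members (each with a mean of at least 50 CPM), and from each list the genes past 2-fold in both libraries and the 2 most abundant. Other named genes, the split by *F13a1* and *Coch*, and leaving out cells with keratinocyte RNA (0.5% of UMIs) were chosen after seeing the values. List symbols were matched through RefSeq names, and 2 of 613 had no single match. Alternatives changed the cell limits, *Crabp1* minimum, gate, depth, doublets, added CPM, scaling, filter, cell weights and comparison cells.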

Additional observations from a re-analysis of the deposited data

Results flagged for a closer look

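For 4 named genes the ratio of the library labelled DTX over the library labelled PBS took opposite directions in the members and in gate cells without *Crabp1*. In each case the difference between the 2 ratios was not tested. *Mgp* had a log2 ratio of -1.44 in members and 1.12 in cells without *Crabp1*, and *H2-Ab1* of 1.34 and -1.59. *Mme* had ratios of -1.04 in members and 0.27 in cells without *Crabp1*, and *Fabp5* of 0.22 and -1.39. In DTX-labelled members 15 of 32 *Mgp* UMIs and 208 of 253 *H2-Ab1* UMIs were in a single cell, so these ratios rest on very few cells. The other 2 genes were uneven too, with 52.6% of 500 *Fabp5* UMIs and 44.6% of 166 *Mme* UMIs in 5 DTX-labelled members. In PBS-labelled members 1 cell held 212 of the 1073 *Fabp5* UMIs. With a minimum of 1 *Crabp1* UMI the members' *Mgp* ratio was 0.95, in the direction of the other gate cells. The members' *H2-Ab1* ratio was -0.54 with gate genes at 4% of UMIs or more and -1.13 at 5000 to 20000 UMIs. With the highest 8% of Scrublet scores removed it was -0.077.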

How the results depend on the processing

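The share of members in the library labelled DTX stayed above that in the library labelled PBS in each of the 9 sets of cells tried. It was 19.4% in PBS and 28.8% in DTX with a minimum of 1 *Crabp1* UMI, 8.63% and 18.3% with a minimum of 4, 9.19% and 18.0% with cells thinned to 5000 UMIs before the rule, and 11.99% in PBS with gate genes at 4% of UMIs or more. The limit of 2000 genes per cell in the study's methods left 37 PBS and 3 DTX members. The shares were then 7.82% (interval 5.57 to 10.6) and 9.38% (1.98 to 25.0), and these intervals overlapped. With that limit 11 genes were higher and 25 lower in both libraries. With 10 CPM added, 57 genes were higher in members of both libraries and 22 higher in DTX members. With at least 10 UMIs and no CPM minimum, more genes entered, and 226 were higher and 247 lower in members of both libraries and 254 higher and 605 lower in DTX members. The mean of CPM per cell gave 25 genes higher in DTX members, cells of 5000 to 20000 UMIs gave 44 lower, and leaving out keratinocyte RNA cells, an alternative chosen after seeing the data, 41 lower.

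Over all alternatives and named genes past 2-fold, 2496 of 2504 log2 ratios of members over cells without *Crabp1* kept their direction, as did 548 of 556 of DTX over PBS, and the 3 list medians past 2-fold kept theirs in 48 of 48. Of the same gene ratios, 2391 of 2504 and 502 of 556 were still at least 2-fold. The totals include the alternatives of added CPM and of the filter on UMIs and CPM, which cannot turn a direction. The genes that turned had log2 ratios as follows, and the cause was not tested. At 2000 genes, *Bmp2* -1.52 and *Ogn* 0.46 in PBS members, *Ly6a* 1.13 and *Saa3* -1.26 in DTX members, and *Saa3* -0.87 in DTX over PBS. At gate genes of 4%, *Coch* -2.11 in DTX members, and *H2-Ab1* -0.54 and *Igfbp4* -0.24 in DTX over PBS. At a minimum of 1 *Crabp1* UMI *Mgp* was 0.95, and at 4 *Igfbp4* was -0.21, both in DTX over PBS. *H2-Ab1* was -0.082 in DTX members and -0.077 in DTX over PBS with the highest 8% of Scrublet scores removed, -0.51 in DTX members after thinning, and -1.13 in DTX over PBS at 5000 to 20000 UMIs, where *Spp1* was -0.037. At 10% mitochondrial UMIs *Ly6d* was 0.99 in DTX members. No paired analysis was possible because each condition had 1 library, and for the same reason no replicate could be left out.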
